A study of Mus musculus with 6 samples.

Results

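Interferon response genes are genes whose transcription rises when a cell senses interferon. A set of 33 of them was followed in mouse visceral fat myeloid cells under 2 diets. The members were taken by gene symbol from the 33456 genes of the count tables, and all 33 were found with 1 row each. Within the set, 15 genes that respond strongly to type I interferon form a core whose summed counts were used to compare single cells, namely Ifit1, Ifit2, Ifit3, Isg15, Irf7, Oasl2, Oas1a, Oas2, Oas3, Mx1, Rsad2, Usp18, Ifi44, Rtp4 and Zbp1. The other members are Stat2, Ifi204, Bst2, Ifitm3, Xaf1, Ifi27l2a, Ifi47, Irgm1, Gbp2, Gbp3, Igtp, Ifi35, Irf1, Irf9, Ifih1, Dhx58, Parp14 and Ly6e.

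Type I interferons bind a receptor made of Ifnar1 and Ifnar2, whose kinases Jak1 and Tyk2 activate transcription factors of the Stat family, Stat2 among them. Together with Irf9, Stat2 takes part in a complex that binds the interferon-stimulated response element (ISRE) near the start of its target genes. Interferon gamma acts through Ifngr1, Ifngr2, Jak1 and Jak2, and its target genes often carry the gamma-activated site (GAS). The products include sensors of foreign nucleic acid, transcription factors that extend the response, and effectors that block virus entry, replication or release, and macrophages are among the cells that respond strongly.

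Single cells were sequenced from epididymal fat after a sort for CD45, which marks blood-derived cells, and for CD11b, which marks the myeloid branch of them. The control diet and the high-fat diet (HFD) had 3 samples each, and the labels name no strain, age, length of feeding or separate animals for them. P-values therefore speak for the spread among 6 samples that may be technical repeats. Transcripts were counted as unique molecular identifiers (UMIs), which tag captured RNA molecules, and levels are given as counts-per-million (CPM) values. Ptprc, the gene of CD45, stood at 218 to 244 CPM in control and 122 to 127 CPM in HFD, and Itgam, the gene of CD11b, at 147 to 217 and 84.2 to 86.4 CPM, so both sort markers were present in all 6 samples and lower in HFD.

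Cell barcodes recurred between samples. There were 2195 distinct barcodes behind 5511 entries, and of these 1082 (49.3%) stood in more than 1 sample and 370 in all 6. Each barcode was therefore counted only in the sample where it had most UMIs, which left 2114 cells after filtering, 986 control and 1128 HFD. The samples then held 260 to 388 control cells with 1997647 to 3874349 UMIs and 295 to 453 HFD cells with 3587086 to 5708323 UMIs. The median depth ranged from 6299.5 to 8518.5 UMIs per cell in control and from 9261 to 10079 in HFD. Cells called fibroblast-like made up 2.32% ± 1.01 (SD, n = 3) of control and 18.4% ± 1.2 of HFD cells. Cells left unnamed, in control mostly of a cluster led by Ear2, Retnla and Lyz1, made up 19.7% ± 2.81 of control and 0.876% ± 0.588 of HFD cells. In a sum over all cells, fewer cells of a class and fewer UMIs of a gene per cell cannot be told apart.

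Promoter sequences show what the members share besides their name. RefSeq promoter windows of build GRCm38.p6 were matched by symbol for 23 of the 33 members, and the 250 bases before the transcription start were searched. The ISRE letters GAAANNGAAA, or TTTCNNTTTC on the other strand, occurred in 12 of 23 members (52.2%) and in 3.46% of all 27025 genes with a window. The GAS letters TTCNNNGAA, which read the same on both strands, occurred in 5 of 23 members (21.7%) and in 8.13% of all genes. A match describes letters and is not evidence of a bound site, and overlapping matches were each counted. A gene with several windows was counted by the window with most matches. Gbp3 had a further window (chr3:142560106-142560355) with 0 ISRE matches, which is not printed here. The windows of 5 members are given 5′ to 3′ on the strand of the gene, with every ISRE match in capitals, because they cover genes that fell with HFD (Isg15, Ifit1 and Gbp3) and genes that did not pass the test (Bst2 and Oas1a).
Isg15 (chr4:156200819-156201068, reverse strand): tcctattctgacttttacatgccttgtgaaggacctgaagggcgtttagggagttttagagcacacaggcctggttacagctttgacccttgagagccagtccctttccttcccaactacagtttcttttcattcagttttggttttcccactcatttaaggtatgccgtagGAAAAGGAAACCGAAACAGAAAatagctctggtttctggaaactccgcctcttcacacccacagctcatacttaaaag
Ifit1 (chr19:34640639-34640888, forward strand): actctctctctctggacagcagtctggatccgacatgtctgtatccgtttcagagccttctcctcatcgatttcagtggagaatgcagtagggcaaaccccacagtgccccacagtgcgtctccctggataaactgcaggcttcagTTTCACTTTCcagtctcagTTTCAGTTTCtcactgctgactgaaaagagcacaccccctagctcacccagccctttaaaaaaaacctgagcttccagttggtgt
Gbp3 (chr3:142559794-142560043, forward strand): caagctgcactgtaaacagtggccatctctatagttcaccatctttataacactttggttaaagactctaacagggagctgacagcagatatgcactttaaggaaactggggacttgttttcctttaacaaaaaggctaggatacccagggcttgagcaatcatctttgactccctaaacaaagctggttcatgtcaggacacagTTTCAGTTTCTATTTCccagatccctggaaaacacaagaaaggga
Bst2 (chr8:71537473-71537722, reverse strand): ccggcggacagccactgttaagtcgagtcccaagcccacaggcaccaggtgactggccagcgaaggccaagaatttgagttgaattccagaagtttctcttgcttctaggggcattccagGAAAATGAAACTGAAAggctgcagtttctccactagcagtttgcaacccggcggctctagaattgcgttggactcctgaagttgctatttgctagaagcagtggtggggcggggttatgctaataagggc
Oas1a (chr5:120907526-120907775, reverse strand): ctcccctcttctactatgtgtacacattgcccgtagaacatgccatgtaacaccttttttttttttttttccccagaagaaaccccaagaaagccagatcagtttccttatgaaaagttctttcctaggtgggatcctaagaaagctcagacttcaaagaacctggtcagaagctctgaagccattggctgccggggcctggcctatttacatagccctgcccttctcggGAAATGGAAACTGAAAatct
Isg15 held 3 overlapping matches between 78 and 57 bases before the start, and Ifit1 held a separated pair. Bst2 and Oas1a each held an overlapping pair as Gbp3 did, so the letters occurred on both sides of the test. Of the members that fell in either comparison below, 6 of the 8 with a window held the ISRE letters, against 6 of the 15 that did not.

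Interferon response genes were lower in the HFD samples where they differed. UMIs were summed per sample over all cells and compared with edgeR's quasi-likelihood test, which took a gene as changed at a Benjamini-Hochberg adjusted p below 0.05 over all 10450 genes tested. Of 31 members tested, 12 fell and 0 rose, 14 had an unadjusted p below 0.05 in either direction, and DESeq2 called 13 lower and 0 higher. Among all genes tested, 17.3% fell and 15.3% rose. The median log2 fold change, HFD minus control, was -0.70 over the members and -0.02 over all genes, and Irf1 and Gbp2 were the members with a positive value. Ifit2, with 46 UMIs in all, and Ifi44, with 13, were too sparse to be tested. With every entry counted as deposited, 11 of 31 members tested fell, beside 1462 of 10887 genes. With barcodes listed in exactly 1 sample, which left 101 to 285 cells per sample, 2 of 25 members tested fell, Ly6e and Ifih1. Of all genes tested under that rule 991 of 6810 fell, a larger share than that of the members. Without the fibroblast-like cells 12 of 31 members tested fell, beside 1657 of 9960 genes. With library totals in place of TMM scaling the median of all genes moved from -0.02 to 0.13 and the share of rises among called genes from 46.9% to 64.7%. Under that scaling 12 members fell and Irf1 rose, where 1288 of 10450 genes fell and 2359 rose.

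**Figure D1:**
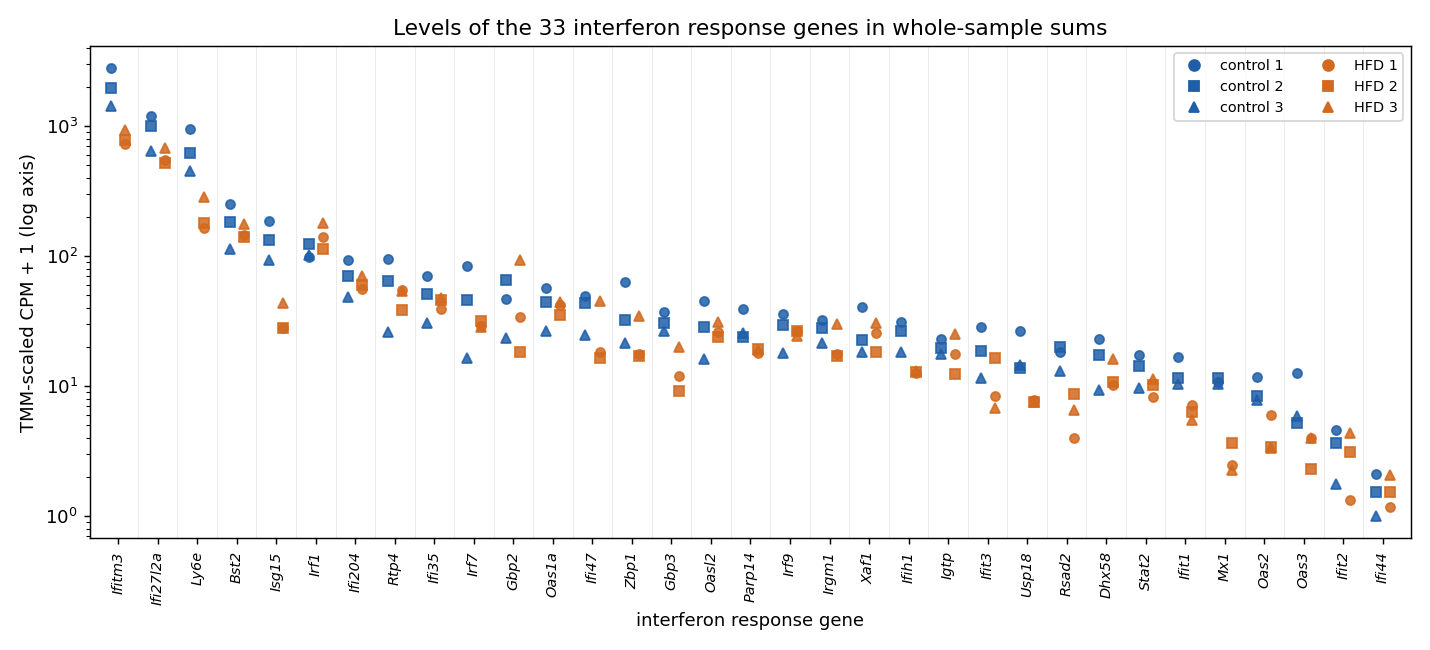
Levels of all 33 interferon response genes in each sample, as TMM-scaled CPM plus 1 on a log axis, with genes ordered by their control mean (blue, control; orange, HFD; symbols mark the sample number). Control 1 was the highest control sample for 29 of the 33 genes, and Ifitm3, Ly6e and Isg15 stood apart between the diets.

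Of 4 surface and membrane effectors, Ifitm3 and Ly6e fell, where 17.3% of all genes tested fell. Levels of members are CPM on TMM-scaled library sizes unless library totals are named. Ifitm3, a membrane protein that blocks fusion of viruses with endosomes, stood at 2784, 1975 and 1435 CPM in control 1, 2 and 3 and at 727, 779 and 928 CPM in HFD 1, 2 and 3. The lowest control sample lay above the highest HFD sample. Ifitm3 was 2.55-fold lower in HFD (log2 fold change -1.35 ± 0.27 SE, adjusted p = 0.0156 by edgeR). The call was lost without HFD 2 (adjusted p = 0.0504) and with barcodes listed in exactly 1 sample (adjusted p = 0.143).

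Ly6e, a lipid-anchored surface protein that restricts the entry of some viruses, stood at 946, 621 and 450 CPM in control and at 163, 178 and 283 CPM in HFD. The groups did not overlap, and Ly6e was 3.24-fold lower in HFD (log2 fold change -1.69 ± 0.38, adjusted p = 0.0302). Its call was lost as deposited, without a filter on low counts, and without control 2, HFD 1 or HFD 2, with adjusted p over all alternatives of 6.48e-09 to 0.088.

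Ifi27l2a, a small interferon-inducible protein, stood at 1190, 1002 and 641 CPM in control and at 552, 517 and 677 CPM in HFD. Control 3 lay within the HFD range, and the gene did not pass the test (log2 fold change -0.70 ± 0.25, adjusted p = 0.0831), though it did by DESeq2 (adjusted p = 0.00796) and without control 3 (adjusted p = 0.000733). Bst2, or tetherin, holds budding virus particles at the cell surface. It stood at 251, 181 and 113 CPM in control and at 145, 139 and 176 CPM in HFD, with control 3 below all HFD samples (log2 fold change -0.25 ± 0.31, adjusted p = 0.593). Without control 3 Bst2 passed (log2 fold change -0.49, adjusted p = 0.0479), and without control 1 its sign turned (0.08).

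Isg15 and Usp18, which removes it, both fell, where 17.3% of all genes tested fell. Isg15 is a ubiquitin-like protein that is attached to other proteins during the response. It stood at 185, 133 and 93.2 CPM in control and at 26.8, 27.2 and 42.2 CPM in HFD. All HFD samples were below all control samples, and Isg15 was 4.29-fold lower in HFD (log2 fold change -2.10 ± 0.33, adjusted p = 0.00724). Usp18, the protease that removes Isg15 from its targets and dampens signalling at the type I receptor, was at 25.7, 12.7 and 13.5 CPM in control and at 6.79, 6.60 and 6.58 CPM in HFD. The groups did not overlap, and Usp18 was 2.69-fold lower (log2 fold change -1.43 ± 0.28, adjusted p = 0.00277). With barcodes listed in exactly 1 sample neither passed, at adjusted p of 0.0544 for Isg15 and 0.237 for Usp18. Uba7 and Ube2l6, which activate and carry Isg15, did not pass in whole-sample sums (log2 fold changes -0.26 and 0.24).

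Antiviral effectors that act on viral RNA or replication were mostly sparse. Mx1, Rsad2, Ifit1, Oas2 and Oas3 fell and Ifit3, Oas1a and Oasl2 did not pass, where 17.3% of all genes tested fell. Values of these sparse genes are shown by a choice made after they were seen. Mx1, a dynamin-like GTPase that traps viral components, was the member with the largest fall in whole-sample sums. It had 35, 20 and 25 UMIs in control and 9, 10 and 6 in HFD, or 9.69, 10.6 and 9.39 against 1.49, 2.64 and 1.27 CPM. The diets were far apart and the control samples alike, and Mx1 was 5.58-fold lower in HFD (log2 fold change -2.48 ± 0.33, adjusted p = 0.000262).

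Rsad2, or viperin, makes a nucleotide that ends viral RNA chains. It had 62, 36 and 32 UMIs in control and 18, 29 and 26 in HFD, without overlap in CPM, and was 3.08-fold lower in HFD (log2 fold change -1.63 ± 0.32, adjusted p = 0.00302). Ifit1, which binds viral RNA that lacks a host-type cap, had 57, 20 and 25 UMIs in control and 37, 20 and 21 in HFD. In CPM, its control samples at 9.39 to 15.8 stood above its HFD samples at 4.46 to 6.13, and it was 2.28-fold lower (log2 fold change -1.19 ± 0.27, adjusted p = 0.00604). Ifit3, a partner of Ifit1, ranged from 10.5 to 27.7 CPM in control and from 5.73 to 15.6 CPM in HFD, with overlap, and did not pass (adjusted p = 0.158).

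The Oas proteins make an oligoadenylate signal that activates RNase L, and the family divided. Oas2 and Oas3, at means of 8.33 and 6.92 CPM in control, were 2.52-fold (adjusted p = 0.0148) and 2.92-fold (adjusted p = 0.0219) lower in HFD. Both lost the call without control 1 or HFD 2, Oas2 also without HFD 3 and Oas3 also without HFD 1. Oas1a stood at 56.2, 43.5 and 25.5 CPM in control and at 41.1, 34.3 and 43.7 CPM in HFD, with a log2 fold change of -0.08 ± 0.26. Oasl2, an Oas-like protein, stood at 44.3, 27.6 and 15 CPM in control and at 24.9, 22.7 and 30.1 CPM in HFD. For Oas1a and Oasl2 control 1 lay above and control 3 below every HFD sample. Reads of Oas1a and of its near-identical copies may have been divided in the counting, and the same holds for the Ifit, Gbp, Ly6 and Ifi204 families. Whether the members of the Oas family differed from each other in their change was not tested.

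Sensors of nucleic acid gave 1 fall among 4 members, against 17.3% of all genes tested. Ifih1, the sensor of long double-stranded RNA also called Mda5, stood at 29.9, 25.5 and 17.3 CPM in control and at 11.6, 11.9 and 12.1 CPM in HFD. The HFD samples were nearly equal and all lay under the control samples, and Ifih1 was 2.06-fold lower (log2 fold change -1.04 ± 0.20, adjusted p = 0.00277). The fall of Ifih1 passed under each of its 16 alternatives, at adjusted p of 7.58e-06 to 0.0314. Dhx58, a relative that tunes the signal of Ifih1, ranged from 8.27 to 21.9 CPM in control and from 9.28 to 15.3 CPM in HFD. Zbp1, which senses Z-form nucleic acid and can start necroptosis, ranged from 20.3 to 62.6 CPM in control and from 16.1 to 33.5 CPM in HFD. Ifi204, a sensor of DNA, stood at 92.5, 69.0 and 47.7 CPM in control and at 55.3, 59.4 and 69.8 CPM in HFD. These 3 overlapped between the diets and did not pass, and the value of Ifi204 turned from -0.19 to 0.10 without control 1.

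The transcription factors of the response gave 0 calls among 4 members by edgeR, where 32.5% of all genes tested were called. Irf7, which amplifies type I interferon production, had the widest control range of the 4, at 82.8, 45.1 and 15.4 CPM, against 27.8, 30.6 and 27.6 CPM in HFD. All HFD samples lay between control 2 and control 3 (log2 fold change -0.77 ± 0.61, adjusted p = 0.403), and without control 3 Irf7 passed (log2 fold change -1.19, adjusted p = 0.00819). Irf1, a factor that responds mainly to interferon gamma and inflammatory signals, stood at 98.3, 124 and 101 CPM in control and at 139, 113 and 180 CPM in HFD. HFD 2 lay within the control range. The log2 fold change of Irf1 was 0.43 ± 0.17 (adjusted p = 0.0965), and it passed with library totals (0.56, adjusted p = 0.0265), without a filter on low counts, and without HFD 2. Stat2 was at 8.64 to 16.3 CPM in control and 7.29 to 10.4 CPM in HFD, and Irf9 was at 16.9 to 34.6 and 23.3 to 25.7 CPM.

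Of 5 interferon-inducible GTPases Gbp3 fell, a share near the 17.3% of all genes tested that fell. These GTPases take part in the defence against intracellular microbes that live in vacuoles. Gbp3 stood at 36.3, 29.7 and 25.5 CPM in control and at 10.9, 8.18 and 18.9 CPM in HFD. The groups did not overlap, and Gbp3 was 2.41-fold lower in HFD (log2 fold change -1.27 ± 0.28, adjusted p = 0.00988), a call lost without HFD 1 and with barcodes listed once. Gbp2 behaved unevenly, at 45.4, 64.2 and 22.5 CPM in control and at 33, 17.4 and 92.9 CPM in HFD. HFD 3 was thus the highest and HFD 2 the lowest of all samples for Gbp2 (log2 fold change 0.15 ± 0.79, adjusted p = 0.914). Irgm1, Igtp and Ifi47 ranged from 16.5 to 48.4 CPM in control and from 11.3 to 43.9 CPM in HFD, and for each of them HFD 3 was the highest HFD sample.

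Of the remaining members, Parp14 fell and Rtp4, Xaf1 and Ifi35 did not pass, where 17.3% of all genes tested fell. Parp14, an ADP-ribosyltransferase of macrophage signalling, stood at 38.2, 22.8 and 24.4 CPM in control and at 17.1, 18.5 and 17.8 CPM in HFD, was 1.64-fold lower (log2 fold change -0.72 ± 0.19, adjusted p = 0.0154), and lost the call without control 1, without HFD 1 and with barcodes listed once. Rtp4, a receptor transporter, stood at 93.6, 63.7 and 25.2 CPM in control and at 53.5, 37.7 and 52.6 CPM in HFD, with control 3 lowest of all samples. Xaf1, a promoter of apoptosis, and Ifi35 overlapped in the same way, with control 3 below every HFD sample for each. Neither passed the test.

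**Figure D2:**
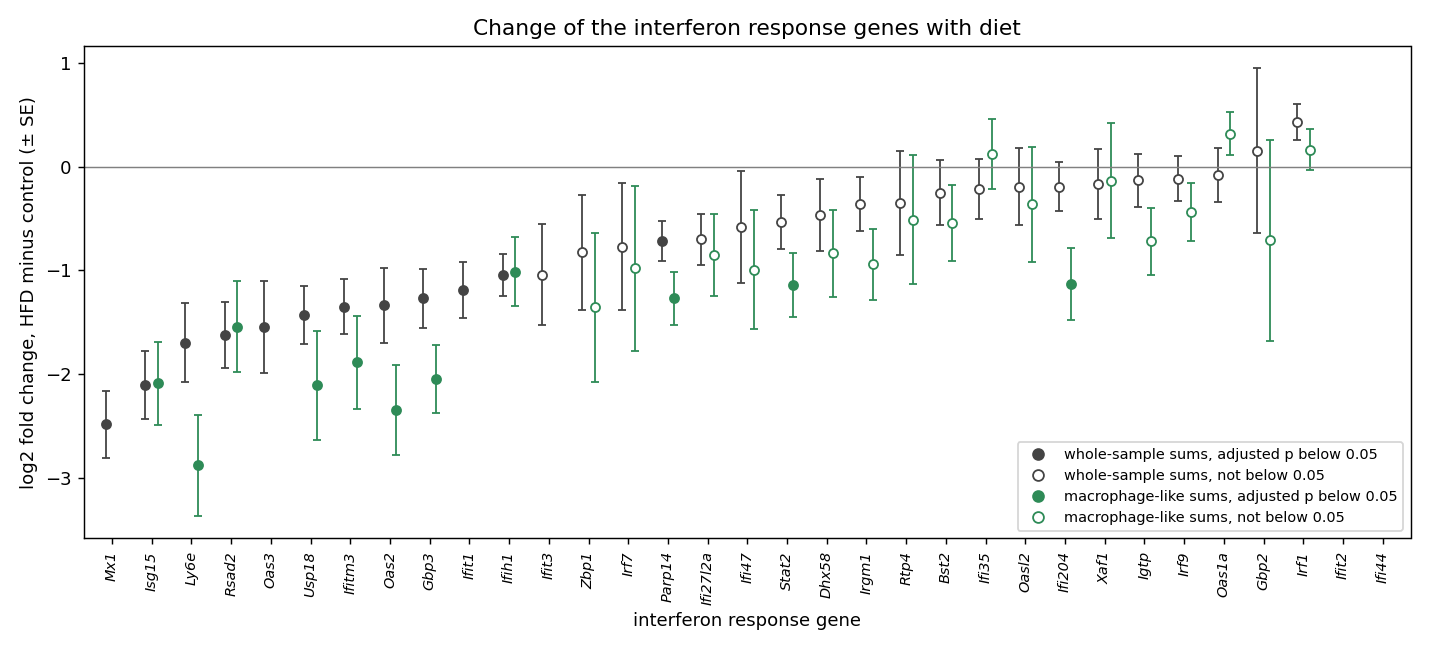
Log2 fold change of each tested member, HFD minus control, with its SE, in whole-sample sums (grey) and macrophage-like sums (green); filled points have an adjusted p below 0.05 and Ifit2 and Ifi44 were not tested. All filled points lie below 0, from -0.72 for Parp14 to -2.48 for Mx1 in whole-sample sums and to -2.88 for Ly6e in macrophage-like sums.

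The control samples differed among themselves by more than the HFD samples did for most members. Control 1 was the highest control sample for 29 of 33 members and control 3 the lowest for 29. For 21 members control 3 lay within or below the range of the HFD samples. The 12 members that fell were also the 12 whose groups did not overlap with HFD lower, and 24.7% of all genes tested had groups apart in that direction. Without control 1 the members' median log2 fold change was -0.26 and 9 of 31 members tested fell, beside 1532 of 10704 genes. Without control 3 the median was -0.82 and 19 of 32 fell, beside 1696 of 10861 genes. Control 1 also held the most UMIs of the control samples and the most cells, 388, and the part of these in the result was not tested.

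Macrophages are the main resident cell of the sort, and a class with macrophage markers (C1qa, Csf1r, Mrc1 and others) held 867 cells, 42.2% ± 8.65 of control and 39.7% ± 5.18 of HFD cells. Within this macrophage-like class, 11 of 27 members tested fell and 0 rose. Of all 8218 genes tested in it, 18% fell and 13.5% rose, 13 members had an unadjusted p below 0.05, and DESeq2 also called 11 lower and 0 higher. The members' median log2 fold change was -0.98 against -0.03 for all genes. Ifit1, Ifit2, Ifit3, Oas3, Mx1 and Ifi44 were too sparse in this class to be tested. As deposited 5 of 29 members tested fell, beside 652 of 9288 genes. Without HFD 1 there were 4 of 29, beside 891 of 8418 genes. Without control 2 there were 7 of 27, beside 1189 of 8682, and without control 3 there were 17 of 29, beside 1480 of 8751. Without control 1 there were 8 of 27, beside 1224 of 8728, and 2 members rose, Oas1a and Xaf1, beside 981 genes. Barcodes listed in exactly 1 sample left 33 to 99 cells per sample. With these, 2 of 12 members tested fell, Isg15 and Ifi204, beside 556 of 3748 genes. In that fit and without HFD 1 the share of members was near that of all genes.

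In macrophage-like sums Ly6e stood at 1548, 921 and 570 CPM in control and at 96.1, 141 and 178 CPM in HFD. It was 7.34-fold lower in HFD (log2 fold change -2.88 ± 0.49, adjusted p = 0.0138), and the call was lost as deposited and with barcodes listed once. Ifitm3 stood at 3212, 1826 and 1098 CPM in control and at 462, 565 and 635 CPM in HFD, without overlap. It was 3.69-fold lower (log2 fold change -1.89 ± 0.45, adjusted p = 0.0364), with adjusted p of 1.39e-07 to 0.128 over 17 alternatives, 7 of which ended the call. Isg15 stood at 127, 114 and 55.5 CPM in control and at 20.6, 15.7 and 32.5 CPM in HFD. It was 4.24-fold lower (log2 fold change -2.09 ± 0.40, adjusted p = 0.0108), and the call was lost as deposited, without HFD 1 and with clusters cut finer.

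Gbp3 at 24.1 to 52.2 CPM in control and 6.73 to 11 CPM in HFD was 4.12-fold lower among macrophage-like cells (adjusted p = 0.00126), and its call was lost as deposited. Oas2 was 5.07-fold lower (adjusted p = 0.00229) and Parp14 2.41-fold lower (adjusted p = 0.00374). Both passed under each of their 16 alternatives. Usp18, Rsad2, Stat2 and Ifih1 fell by 2.01- to 4.31-fold, each with a call that at least 3 alternatives ended. Ifi204, which did not pass in whole-sample sums, stood at 136, 80.4 and 52.6 CPM in control and at 41.5, 34.8 and 46.9 CPM in HFD. Its fall of 2.20-fold (adjusted p = 0.048) was lost under 8 of 17 alternatives. Leaving out HFD 1 ended the calls of Isg15, Ifitm3, Usp18, Rsad2, Stat2, Ifih1 and Ifi204. Without control 2 Ifitm3, Rsad2, Stat2, Ifih1 and Ifi204 lost theirs, and without control 1 Usp18, Rsad2 and Ifih1. Without HFD 2 Ifitm3, Ifih1 and Ifi204 lost theirs, and without HFD 3 the same 3 with Usp18 and Rsad2. Of the 11 falls, 10 were without overlap between the diets, where 24.7% of all genes tested were, and Rsad2 overlapped.

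The macrophage-like class was not made of the same clusters in both diets. Clusters were drawn without the members or other interferon genes. Control cells came mostly from clusters led by Cd209f and Lyve1, by Ccl24, and by Saa3, and HFD cells mostly from clusters led by Spp1 and Mmp12, by Mmp9 and Fabp4, and by Ms4a7 and Acp5. With each cell of at least 3000 UMIs thinned to 3000, the first Cd209f and Lyve1 cluster averaged 2, 1.5 and 0.79 core UMIs per cell in control 1, 2 and 3, from 74, 22 and 53 cells. Its few HFD cells, 7, 8 and 13 in number, averaged 1.29, 0.62 and 1.08. Within that cluster, pooled over samples, Ifitm3 stood at 2339 CPM of library totals in control and 2413 in HFD, and Ly6e at 1665 and 1081. The Spp1 cluster averaged 0.81, 0.84 and 0.60 in HFD, from 91, 44 and 43 cells, and held 8 control cells in all. The Ms4a7 cluster was the lowest of all clusters at 0.32 core UMIs per cell. The level of a gene in macrophage-like cells and the mix of clusters within them cannot be told apart here.

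Other classes with cells enough to sum were compared after the data were seen. In cDC2-like cells, dendritic cells with Cd209a and Flt3, 8.44% of 2795 genes were called and 4.26% fell. Of 8 members tested 2 fell. Ifitm3 stood at 3033, 2538 and 3165 CPM in control and at 1545, 1448 and 1825 CPM in HFD (log2 fold change -0.86 ± 0.12, adjusted p = 0.000311), and it passed under each of 11 alternatives. Isg15 stood at 72.1, 153 and 114 CPM in control and at 38.3, 32.1 and 50.1 CPM in HFD (log2 fold change -1.39 ± 0.35, adjusted p = 0.0179), a call lost without control 2 or HFD 1. Both were without overlap, as were 12.3% of all genes tested with HFD lower, and here control 1 was not the highest sample for either. HFD 2 held 17 cells of this class. With library totals the share of rises among called genes went from 49.6% to 67.6%, and 2 members still fell.

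In monocyte-like cells, with Ly6c2 and Chil3, 0.417% of 2639 genes were called and 0 of 15 members tested passed by edgeR or DESeq2, while 3 had an unadjusted p below 0.05. Ifitm3 stood at 2826, 2596 and 2371 CPM in control and at 1586, 1844 and 1309 CPM in HFD (log2 fold change -0.72 ± 0.14, adjusted p = 0.0508), and it passed without HFD 2 (adjusted p = 0.0133). Isg15 had a log2 fold change of -1.17 ± 0.42 (adjusted p = 0.295) and Irf1 of 0.81 ± 0.35 (adjusted p = 0.372). Control 1 held 18 and HFD 2 held 15 cells of this class. On simulated data drawn from these sums 40.2% of 2-fold changes were recovered, against 66.0% in whole-sample sums, so changes of that size could often be missed.

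**Figure D3:**
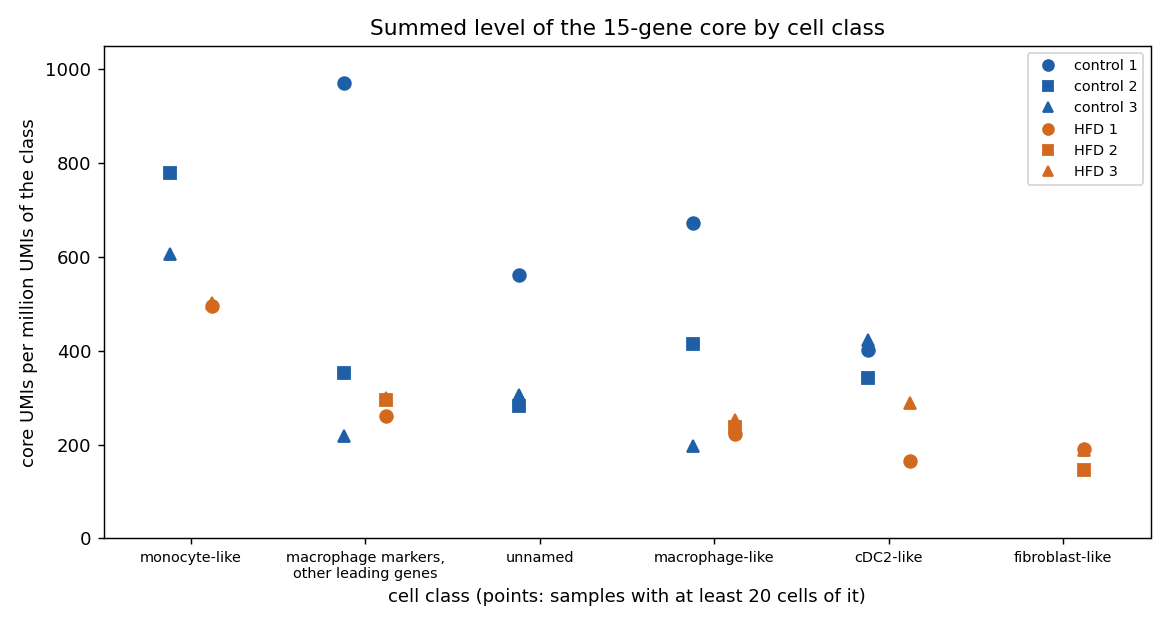
Summed level of the 15 core genes, in CPM of the library total of the class, for every sample with at least 20 cells of a class (blue, control; orange, HFD; symbols mark the sample number). Monocyte-like cells stood at 495 to 779, fibroblast-like cells at 146 to 191, and control 1 was the highest sample among macrophage-like cells and among cells with macrophage markers but other leading genes, where 1 of its cells held 112 of 264 core UMIs.

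Core levels differed among classes. As CPM of the summed UMIs of a class, without TMM scaling, monocyte-like cells of all samples held 569 and fibroblast-like cells 191. Macrophage-like cells held 673, 414 and 198 CPM in control and 223, 237 and 251 in HFD, so control 3 was the lowest of the 6. Cells with macrophage markers but other leading genes held 971, 354 and 218 in control and 262, 295 and 300 in HFD. Of this class, 73 of 89 control cells were of a cluster led by Ccl12, and 239 of 244 HFD cells of another led by Hbb-bs. Diet and cluster therefore cannot be told apart in it. cDC2-like cells held 402, 342 and 424 in control and 164 in HFD 1 and 288 in HFD 3. Single cells decided some of these levels. In cDC2-like cells of control 3, 1 cell held 56 of 86 core UMIs, and without it the level was 155 CPM. Among the cells with other leading genes, 1 cell of control 1 held 112 of 264 core UMIs and 1 of HFD 2 held 77 of 229, and the levels without them were 579 and 200. In monocyte-like cells the level of control 2 went from 779 to 517 and that of control 3 from 606 to 367 in the same way. Macrophage-like cells held 644, 394 and 191 in control and 216, 212 and 234 in HFD when the richest cell of each sample was left out, an alternative chosen after seeing the data.

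Individual members had their own pattern over the classes. On the same scale, Isg15 was at 245 CPM in control cells of the cluster led by Ear2, Retnla and Lyz1, against 92.7 in control macrophage-like cells, while Irf7 was at 17.5 in the former and 51.7 in the latter. In the migratory dendritic cell-like class, with Ccr7 and Fscn1, Isg15 was at 192 and Irf7 at 9.16. Ifitm3 was at 1996 in fibroblast-like and 2347 in cDC2-like cells, and at 345 in the Spp1 cluster of macrophage-like cells. Ly6e was at 1546 and 1543 in the 2 Cd209f and Lyve1 clusters and at 38.0 in the Spp1 cluster. Gbp2 was at 207 and 347 in the monocyte-like cells of HFD 1 and HFD 3. Levels are read here within a gene, since CPM say little about levels between genes.

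Core UMIs were unevenly spread over cells in both diets, and the richest 5% of cells held 26.5% to 39.5% of them. After thinning to 3000 UMIs, which left out 129 of 986 control and 30 of 1128 HFD cells, 71.2% of cells in control 1 (95% exact binomial interval 66.2 to 75.9), 55.6% in control 2 (48.7 to 62.3) and 42.2% in control 3 (36.4 to 48.1) had at least 1 core UMI. In HFD 1, 2 and 3 the shares were 38.3% (33.8 to 43.0), 37.4% (31.8 to 43.3) and 43.7% (38.6 to 49.0). Without thinning the shares were 66.3% to 89.4% in control and 66.1% to 74.2% in HFD. Control 3 and the HFD samples lay close together in this share, and intervals cover counting error only. No class in these data is known to lack these genes, so a share from free RNA could not be set, and the lowest cluster, led by Ms4a7, gives the nearest comparison.

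The richest 5% of cells held 26.5%, 29.9% and 36.7% of the core UMIs in control 1, 2 and 3 and 33.3%, 39.5% and 30.6% in HFD 1, 2 and 3. The means were 31.1% ± 5.21 (SD, n = 3) in control and 34.5% ± 4.53 in HFD, closer together than the samples of 1 diet. Unthinned they were 33.7% and 33.9%. The richest 1%, 3 to 5 cells per sample, held 10.6% to 18.1%, and the richest 10% held 40.6% to 54.2%. The variance of core UMIs per cell was 2.19 to 4.10 times their mean, where counting error alone gives a ratio near 1, and with another thinning seed 1.90 to 3.86. The mean was 1.99, 1.25 and 0.75 core UMIs per cell in control and 0.71, 0.66 and 0.78 in HFD. The shares of the richest cells depend on this mean too, and the share that counting error alone would give was not computed. Similar shares therefore do not show that the core was equally concentrated in both diets.

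**Figure D4:**
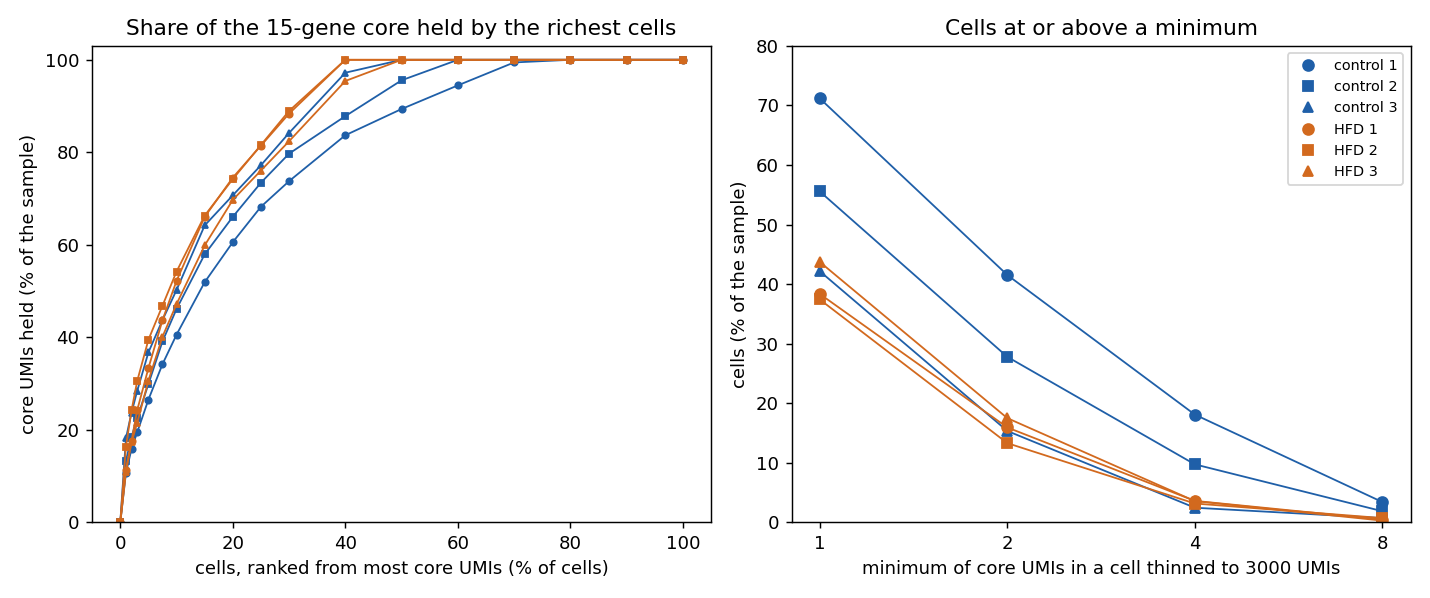
Left, the cumulative percentage of a sample's core UMIs held by its cells, ranked from the richest; right, the percentage of cells with at least 1, 2, 4 or 8 core UMIs, both in cells thinned to 3000 UMIs. The 6 curves on the left run close together, with 40.6% to 54.2% of the UMIs in the richest 10% of cells, while on the right control 1 and control 2 stand above the other 4 samples.

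Cells rich in the core, with at least 4 core UMIs after thinning, made up 18.1% of control 1 (14.2 to 22.5), 9.72% of control 2 (6.12 to 14.5) and 2.44% of control 3 (0.986 to 4.96). In HFD they made up 3.59% (2.06 to 5.76), 3.15% (1.45 to 5.89) and 3.55% (1.90 to 6.00). The HFD samples were alike, and the interval of control 3 overlapped theirs. Control samples had 64, 21 and 7 rich cells and HFD samples 16, 9 and 13. They held 57.6%, 45.0% and 25.6% of the core UMIs in control and 26.7%, 30.5% and 24.3% in HFD. Since a sample with a higher mean has more cells past a fixed minimum, these shares are not independent of the mean level.

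Rich cells were spread over classes. Among macrophage-like cells 34 of 342 in control (9.94%) and 14 of 436 in HFD (3.21%) were rich. By sample these were 28 of 138, 6 of 67 and 0 of 137 cells in control and 7 of 191, 5 of 121 and 2 of 124 in HFD, so control 1 held most of them. Among cDC2-like cells 6 of 48, 4 of 25 and 1 of 23 were rich in control. In HFD 0 of 20, 0 of 17 and 0 of 23 were, which allows shares of up to 15%, 17.6% and 13%. Fibroblast-like cells of HFD had 1 of 203. By cluster, the Saa3-led macrophage-like cluster had 8 of 48 (16.7%) and the Ear2 and Retnla cluster 23 of 181 (12.7%). The Ms4a7 cluster, pooled over samples, had 0 of 99, with an interval up to 3.66%.

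The most extreme cells came from different samples and classes. The richest cell, of control 1, had 34 thinned core UMIs of 10 core genes and 112 before thinning, led by 35 of Irf7, 20 of Isg15 and 16 of Ifit3, and was 1 of the cells with macrophage markers but other leading genes. The next was a cDC2-like cell of control 3 with 24, led before thinning by 15 of Ifit3 and 11 of Isg15. A monocyte-like cell of control 2 followed with 20. The richest HFD cell, of HFD 2, had 15, and 34 of its 77 core UMIs before thinning were Ifit3. Of the cells with at least 8 thinned core UMIs, 12, 4 and 2 were of control 1, 2 and 3. HFD 1, 2 and 3 had 2, 2 and 1 such cells.

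Levels were also computed with the rich cells set aside. These cells were chosen by the core counts themselves, so the values are a description. Summed over the core, levels were 603, 405 and 257 CPM of library totals in control and 237, 225 and 273 in HFD with all cells. With rich cells set aside, control samples held 402, 297 and 207 CPM and HFD samples 205, 168 and 233. The ratio of control to HFD means went from 1.72 to 1.49. Isg15 kept a ratio of 3.62 after 3.86, and Ly6e 2.87 after 2.92. Ifit1 went from 2.04 to 1.06, and rich cells held 61.8% of its control UMIs and 23.1% of its HFD UMIs. Isg15, Ifit1 and Ifit3 are themselves among the core genes that choose the rich cells, so nothing about them or the summed core is read from these ratios. Rich cells held 58.4% and 48.1% of the Ifit3 UMIs in control and HFD. Of the Ifitm3 UMIs they held 18.5% and 6.47%.

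Isg15 was also found in cells without the rest of the core. Isg15 made up 28.8%, 31.7% and 36.7% of thinned core UMIs in control 1, 2 and 3 and 11.9%, 15.8% and 14.4% in HFD. In control 3, 28.8% of the cells with an Isg15 UMI and 29.4% of those without had a UMI of another core gene. In HFD 1, 2 and 3 the same shares were 61.3%, 56.5% and 58.8% with Isg15 and 33.7%, 31.9% and 38.0% without. In control 1 they were 63.1% with and 58.0% without, and in control 2 45.3% and 41.1%. Differences between samples in these shares were not tested. The mean number of other core UMIs was higher in cells with Isg15 in each sample, in control 3 at 0.83 against 0.40.

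Interferon transcripts themselves were rarely captured. Of 19 interferon genes, 15 had 0 UMIs in all cells, Ifna5 and Ifnab had 1 each, and none could be tested. Ifnb1, the gene of interferon beta, had 13, 2 and 13 UMIs in control and 2, 2 and 2 in HFD, as raw counts from libraries of unequal totals. These 34 UMIs lay in 29 cells, 9 of them among the 187 control cells of the Ear2 and Retnla cluster and 10 among the 88 control cells of the Ccl24-led macrophage-like cluster. Ifng, the gene of interferon gamma, had 15 UMIs, 10 of them in T cell-like cells. Markers of plasmacytoid dendritic cells, which make much type I interferon, summed to 94.2 to 137 CPM over 7 genes, with Klk1 at 0 in all samples. No cluster was named for these cells, and which cells held the marker UMIs was not examined.

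Receptors and signalling genes did not move together. Of 5 receptor genes tested in whole-sample sums 2 rose and 1 fell, where 15.3% of all genes tested rose and 17.3% fell. Il10rb, a subunit shared with the interferon lambda receptor, rose from 141 ± 5.31 to 202 ± 12.9 CPM (log2 fold change 0.52 ± 0.09, adjusted p = 0.00101). Ifngr2 rose by 0.48 on the log2 scale (adjusted p = 0.00256) and Ifngr1 fell by 0.32 on that scale (adjusted p = 0.00779), while Ifnar1 and Ifnar2, the type I receptor, did not pass. Of 15 signalling genes 2 rose and 7 fell. Jak2 fell from 38.9 ± 8.80 to 13.4 ± 2.09 CPM (adjusted p = 0.000185) and Tyk2 from 20.6 ± 2.41 to 10.8 ± 0.70 CPM (adjusted p = 0.00199). Cish, an inhibitor of cytokine signalling, fell by 2.54 on the log2 scale (adjusted p = 0.000305). Socs3, another such inhibitor, rose from 168 ± 19.3 to 299 ± 23.8 CPM (adjusted p = 0.000186).

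A list of sensors and related genes outside the 33 members gave 4 falls and 0 rises among 19 tested. Samhd1, Aim2, Trim25 and Ticam2 fell, a share near the 17.3% of all genes tested that fell. Samhd1, which depletes nucleotides needed by viruses, fell from 251 ± 29.2 to 143 ± 18.4 CPM (log2 fold change -0.81 ± 0.12, adjusted p = 0.00042). Of 76 other interferon-stimulated genes tested, 20 fell and 2 rose, a share of falls of which the background is again 17.3%, with a median log2 fold change of -0.46. Ifitm6, of the family of Ifitm3, fell from 172 ± 25.2 to 29.2 ± 2.88 CPM (log2 fold change -2.56 ± 0.13). Ifitm1 fell by 1.80, Ddx60 by 1.49 and Slfn1 by 1.99 on the log2 scale, with adjusted p of 0.00272, 0.00436 and 0.00573. The 2 that rose were Fcgr1, an antibody receptor, by 0.72 (adjusted p = 0.0209), and Ly6a by 1.45 (adjusted p = 0.0448). Ly6a is also a marker of fibroblast progenitors, and summed fibroblast markers stood at 331 to 1127 CPM in control and 3170 to 4263 in HFD, whose part in this rise was not tested.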

How the data were processed

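The authors deposited 1 matrix of whole-number UMI counts per sample, per the file headers without normalization. Cell Ranger, Seurat 2.4 and build mm9 are named, without a role, per the submitters' processing notes, and the calling of barcodes is not described in these sources. Cells with at least 200 genes and at most 10% mitochondrial UMIs were kept, 5402 of 5511 entries, and no doublet caller was run. Clusters used the 2000 most variable genes without any interferon list, 30 principal components, 20 neighbours and resolution 1.0 (scanpy 1.11.5, leidenalg 0.10.2). Cluster names other than macrophage-like needed at least 3 raised markers. The macrophage-like name needed at least 6 of 11 macrophage markers at or above the median over clusters, and did not require raised ones. Both limits were set with the data already known. Sums were tested with edgeR 4.0.16 (TMM, filterByExpr, robust quasi-likelihood) in R 4.3.3, with DESeq2 1.42.0 as an alternative. The SE is the absolute log2 fold change divided by the square root of the F statistic. Thinning used a fixed seed. Alternatives were other barcode rules, filters, size factors, cluster resolutions and thinning depths, a replicate block and leaving out each sample. Library totals, the wider macrophage class, the monocyte-like and cDC2-like sums and the levels without rich cells were added after the data were seen.

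The members, core and lists were chosen with earlier results of these data known. By rule, values in every sample are given for called members with a mean of at least 20 CPM and for members of at least 100 CPM, and for up to 4 genes of each other list. The other members' values were added after they were seen. edgeR was tested on simulated data with 200 changed genes, and recovered 95.8% of 4-fold changes in whole-sample sums and 97.8% in macrophage-like sums.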

Additional observations from a re-analysis of the deposited data

How the results depend on the processing

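The counts of members depended on the samples and barcodes used. Members lower in whole-sample sums numbered 8 to 19 with a sample left out, and in macrophage-like sums 4 to 17. Members higher numbered 0 to 1 and 0 to 2. With barcodes listed in exactly 1 sample, 2 members fell in both sums, of 25 and 12 tested. Called genes there numbered 1950 and 971, and 991 of 6810 and 556 of 3748 genes fell. As deposited, called genes in macrophage-like sums numbered 1165 and members lower 5. Leaving out a sample gave 2291 to 3343 called genes in whole-sample and 1514 to 2747 in macrophage-like sums. Without a filter on low counts, and with library totals, 1 member rose in whole-sample sums. In monocyte-like sums called genes numbered 19 by DESeq2, 109 without the filter, 3 with the replicate block and 0 to 35 with a sample left out. Members lower there numbered 1 with RLE size factors, 2 without the filter and 0 to 1 with a sample left out. In cDC2-like sums DESeq2 called 143 genes, and leaving out a sample gave 122 to 209 called genes and 1 to 3 members lower.

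Directions turned for Ifi204 in whole-sample sums (0.21 with barcodes listed once, -0.400 to 0.097 with a sample left out), Bst2 there (-0.492 to 0.078), Irf7 in macrophage-like sums (-1.50 to 0.326) and Irf1 there (-0.154 with barcodes listed once, -0.0786 to 0.310 with a sample left out). The cause was not tested. Over the 12 members called in whole-sample sums, 165 of 187 refits kept the call and the direction, and over the 11 of macrophage-like sums 136 of 180.

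With the replicate block, 11 members fell in whole-sample sums, where Ly6e lost the call, and 9 in macrophage-like sums, where Isg15, Ly6e, Ifitm3 and Ifih1 did. Deviations from the diet means correlated at -0.24 to -0.03 between same-numbered samples and at -0.13 to 0.27 between other-numbered ones. With 3 samples per diet these values cannot decide whether the numbers pair the samples.

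The share of cells with at least 4 core UMIs depended on depth and minimum. In control it was 29.1% unthinned, 28.2% for a minimum of 2, 1.98% for 8, 5.12% and 17.7% at 2000 and 5000 UMIs, 9.03% with another seed and 7.92% as deposited. In HFD it was 25% unthinned, 15.6% for 2 and 0.474% for 8, 1.59% and 8.32% at 2000 and 5000 UMIs, 3.88% with another seed and 4.30% as deposited. The HFD core level without rich cells was 153 CPM for a minimum of 2. Sparse members such as Ifi44 and Ifit2 were limited by depth.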
